A study of Mus musculus with 6 samples.

Results

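Smooth muscle cells shorten when motor proteins pull actin filaments past each other, and 10 genes that encode this machinery or its scaffold were examined here. They were taken by name from the gene table of the series, and all 10 were present among its 14366 genes. They are the actin genes Acta2 and Actg2, the myosin heavy chain gene Myh11, the regulatory light chain gene Myl9 and the kinase gene Mylk. With them are the thin filament genes Tpm1, Tpm2, Cnn1 and Tagln and the intermediate filament gene Des. RNA-seq was done on the male mouse mesonephros at embryonic day 16.5, with the tubule region kept in the dissection. The 3 control samples carried the Osr2-Cre recombinase with 1 floxed and 1 unfloxed Gata2 allele. The 3 Gata2cKO samples carried the same recombinase with 2 floxed alleles. Both groups thus carried Osr2-Cre, and the controls could lose 1 Gata2 allele in cells where it acts. The comparison asks what Gata2 in the mesenchyme around the Wolffian duct does for the development of the duct, which becomes the epididymis.

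As background, a rise in calcium activates the kinase encoded by Mylk, which phosphorylates the light chain encoded by Myl9 and so switches on the myosin motor encoded by Myh11. Tropomyosin, calponin and transgelin lie along or bind the actin filament, and desmin filaments tie the contractile units to the rest of the cell. Many of these genes are switched on by serum response factor and its partner myocardin, which act at a short DNA element called the CArG box. A coat of smooth muscle forms from the mesenchyme around the epididymal duct, and blood vessels carry smooth muscle as well.

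Myl9 has a box of this kind shortly before its start, and Acta2 and Myl9 have boxes of a looser form described below. Those sites are shown. Each line gives the box in capitals with its flanks in lower case, 5′ to 3′ on the strand of the gene, from RefSeq promoter windows of the GRCm38.p6 build.
Acta2, upstream box, chr19:34255438-34255467, minus strand: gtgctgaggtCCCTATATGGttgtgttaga
Acta2, downstream box, chr19:34255388-34255417, minus strand: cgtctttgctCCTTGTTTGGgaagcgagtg
Myl9, upstream box, chr2:156775293-156775322, plus strand: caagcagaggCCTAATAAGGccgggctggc
Myl9, downstream box, chr2:156775355-156775384, plus strand: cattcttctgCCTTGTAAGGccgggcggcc

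The upstream Myl9 box has the full CArG form, in which all 6 bases between the outer cytosine and guanine pairs are adenine or thymine. The other 3 boxes have 5 such bases among the 6, a looser form that was searched for after the values were seen. A window runs from 250 bases before to 50 bases after a gene's start, and both forms read the same way on either strand. The boxes begin 84 and 34 bases before the RefSeq start of Acta2 and 161 and 99 bases before that of Myl9. GENCODE release M21 draws an Acta2 exon across both of its boxes. Windows were at hand for 7 of the 10 genes, and those of Myh11, Tagln and Actg2 were not analysed here. The full form was in 1 of them (Myl9) and in 1.63% of all 32851 windows. The looser form was in 2 of them (Acta2 and Myl9) and in 8.5% of all windows. The motif AGATAA with its variants written AGATAG or else TGATAA or else TGATAG, which GATA factors can bind, was searched on both strands. It was found in 0 of the 7 windows and in 29.8% of all windows. A match or its absence in so short a window is a description of letters only.

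The libraries were alike in what they detected, with 12122 to 12301 genes at or above 1 TPM (a transcript level scaled for gene length and library total). Control replicate 1 stood apart, with 21.9% of its TPM in mitochondrially encoded genes against 13.2% to 16.3% in the other 5 libraries. Read depth is unknown because TPM keeps none, so the spread between samples is the measure of error. Nothing in the labels ties each sample to its own embryo, so p-values measure only the spread between these samples, which may be technical. Gata2 was at 384, 464 and 546 TPM in control replicates 1 to 3 and at 431, 529.8 and 416 TPM in Gata2cKO replicates 1 to 3. The groups overlapped, with a log2 fold change of -0.01 in log2(TPM + 1) (limma adjusted p = 0.968, test described below). A gene-level value can include exons outside the deleted stretch, so it does not check the labels. Why the value was not lower in Gata2cKO was not tested. Of 18 listed markers of the duct and tubule epithelium, 16 had 1 TPM or more in at least 3 libraries. In every library 1 of the 18 was under 1 TPM. The summed level of the 18 was 1248 to 1407 TPM in controls, and Krt18 was the most abundant.

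In control tissue the 10 genes fell into a high and a low set. Their order by mean was Myl9 (355 TPM), Acta2 (315 TPM), Tagln (183 TPM), Des (181 TPM), Tpm1 (161 TPM) and Tpm2 (124 TPM), followed at a distance by Mylk (15.1 TPM), Cnn1 (6.69 TPM), Myh11 (4.49 TPM) and Actg2 (1.92 TPM). Among neighbours in this order, the control values overlapped between Myl9 and Acta2, between Tagln and Des, between Des and Tpm1 and between Cnn1 and Myh11. The other neighbours did not overlap. Myl9 and Acta2 held the ranks 332 and 369 of the 14366 genes by control mean. Myh11 and Actg2, whose products mark mature smooth muscle, held the ranks 9475 and 11206. In Gata2cKO the order was the same except that Des stood above Tagln.

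Means are given below ± SD over the 3 libraries of a group. The 10 genes were chosen with earlier results of these data known, so their count beside the share of all genes is a description. Of the 10 genes, 3 fell in Gata2cKO and 0 rose: Myh11, Acta2 and Myl9. Each is a core part of the actin and myosin motor. Across all 12300 genes tested, 1.74% fell, 5.73% rose and 7.47% did either by the same test (limma on log2(TPM + 1), p-values adjusted over all tested genes, threshold 0.05). In numbers, 214 genes fell and 705 rose, against 397 and 502 with median-of-ratios scaling, where the same 3 contractile genes fell. The other 7 did not pass in either direction. The log2 fold change, given throughout with control subtracted from Gata2cKO, in log2(TPM + 1), was negative for 8 of the 10 and positive for 2, with a median of -0.23 against 0.05 over all tested genes. The summed level of the 10 genes was 1287, 1301 and 1454 TPM in control replicates 1 to 3 and 1083, 1146 and 1038 TPM in Gata2cKO replicates 1 to 3, so the groups did not overlap. Myl9 and Acta2, the most abundant of the 10, weigh most in this sum, so it is not separate from their calls. How often sums of other genes separate the groups was not computed. In whole tissue, fewer smooth muscle cells and less of this RNA per cell cannot be told apart. How many genes fell depended on single libraries. The number was 4 when control replicate 1 was left out, 2 when it was control replicate 2, and 1 for each of the other 4 libraries. The share of all tested genes that fell moved as well. It was 3.5%, 0.496% and 0.415% without control replicates 1, 2 and 3. Without Gata2cKO replicates 1, 2 and 3 it was 0.236%, 0.667% and 0.374%.

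**Figure D1:**
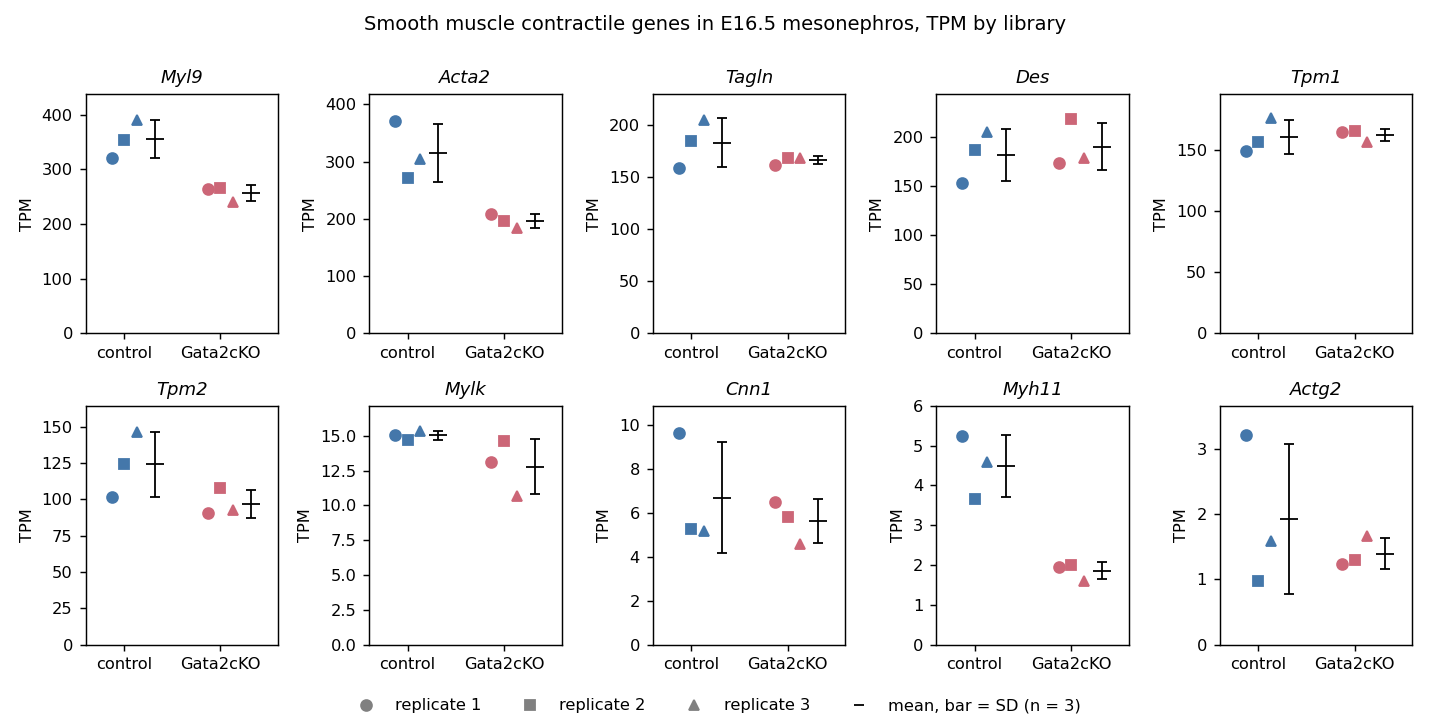
TPM of each contractile gene (vertical axis, from 0) in the 3 control (blue) and 3 Gata2cKO (red) libraries, with marker shape for the replicate and a black bar for mean and SD (n = 3). Myh11, Acta2, Myl9 and Mylk have all Gata2cKO values below all control values, while the other 6 overlap.

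The myosin motor showed the largest change. Myh11 (chr16:14194535-14291372, GRCm38, minus strand) encodes the smooth muscle myosin heavy chain, a defining protein of differentiated smooth muscle. It was at 5.23, 3.67 and 4.58 TPM in control replicates 1 to 3 and at 1.94, 2.0 and 1.61 TPM in Gata2cKO replicates 1 to 3. Every Gata2cKO library lay under every control. The mean was 2.43-fold lower, 1.85 ± 0.214 against 4.49 ± 0.783 TPM, and the log2 fold change was -0.94 (SE 0.13, 95% interval -1.23 to -0.65, limma adjusted p = 0.0114). Because its level was near the pseudocount, this scale understates the change, and with a pseudocount of 0.1 the value was -1.23. Myh11 kept its call whichever of the 6 libraries was left out, with limma adjusted p from 0.00761 to 0.0497.

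Myl9 (chr2:156775420-156781658, plus strand), the regulatory light chain, was at 321, 354 and 389.9 TPM in control replicates 1 to 3. It was at 263, 266 and 240.4 TPM in Gata2cKO replicates 1 to 3, again with no overlap. Its mean was 1.38-fold lower at 257 ± 14.2 against 355 ± 34.5 TPM, a log2 fold change of -0.46 (SE 0.10, 95% interval -0.69 to -0.24, limma adjusted p = 0.0330). Only the removal of control replicate 1 left that call in place (limma adjusted p = 0.0106). Without control replicates 2 or 3 or Gata2cKO replicates 1, 2 or 3, the limma adjusted p was 0.101, 0.0852, 0.116, 0.0721 and 0.124.

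Mylk (chr16:34745210-35002420, plus strand), the kinase that acts on this light chain, was at 15.1, 14.7 and 15.4 TPM in controls and at 13.1, 14.6 and 10.7 TPM in Gata2cKO. The groups did not overlap, but replicate 2 of Gata2cKO lay just under the lowest control. The log2 fold change of -0.23 did not pass (95% interval -0.50 to 0.04, limma adjusted p = 0.244). All Gata2cKO values were below all controls for 4 of the 10 genes, Mylk included, and for 10.5% of all tested genes.

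Acta2 (chr19:34241090-34255590, minus strand) encodes the actin that first appears as smooth muscle forms. It was at 370.2, 271 and 305 TPM in control replicates 1 to 3 and at 208, 196 and 184 TPM in Gata2cKO replicates 1 to 3. The highest Gata2cKO library lay well under the lowest control. Its mean was 1.61-fold lower at 196 ± 11.9 against 315 ± 50.6 TPM, a log2 fold change of -0.67 (SE 0.12, 95% interval -0.96 to -0.39, limma adjusted p = 0.0230). The call held without control replicate 1 or 2 (limma adjusted p = 0.0113 and 0.0353). Removing control replicate 3 or Gata2cKO replicate 1, 2 or 3 ended it (limma adjusted p = 0.0584, 0.0777, 0.0677 and 0.0974).

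Actg2 (chr6:83512905-83536265, minus strand), the actin typical of visceral smooth muscle, was near the floor. It was at 3.20, 0.974 and 1.59 TPM in controls and at 1.23, 1.29 and 1.66 TPM in Gata2cKO, so the groups overlapped and control replicate 1 alone was high. Its log2 fold change was -0.22 with a wide 95% interval of -0.80 to 0.36 (limma adjusted p = 0.608). Without control replicate 1 it was 0.077.

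Among the thin filament genes 0 of 4 passed by limma, and 1 of 4, Tpm2, had an unadjusted p under 0.05 (0.0418). Tpm2 (chr4:43514711-43523765, minus strand), a tropomyosin, was at 102, 124 and 147 TPM in controls and at 90.3, 108 and 92.7 TPM in Gata2cKO. These overlapped because control replicate 1 lay below Gata2cKO replicate 2. A log2 fold change of -0.34 did not pass (95% interval -0.67 to -0.02, limma adjusted p = 0.165). Without control replicate 1 it was -0.48 and passed (limma adjusted p = 0.0328), in a setting where 3.5% of all tested genes fell.

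Tpm1 (chr9:67022590-67049406, minus strand), the other tropomyosin, was at 149, 157 and 176 TPM in controls and at 164, 166 and 157 TPM in Gata2cKO. The 2 groups lay in the same range. The log2 fold change was 0.02 (95% interval -0.18 to 0.22, limma adjusted p = 0.921), and it was -0.043 with median-of-ratios scaling. Both tropomyosin genes give many transcripts by alternative splicing, muscle and non-muscle forms among them, with 21 annotated for Tpm1 and 6 for Tpm2 in GENCODE release M21. A gene-level TPM sums these forms.

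Tagln (chr9:45929619-45936058, minus strand), which encodes the actin-binding protein transgelin, was at 159, 185 and 205 TPM in controls. It was at 161, 168 and 168 TPM in Gata2cKO, within the control range. Its log2 fold change was -0.13 (95% interval -0.37 to 0.11, limma adjusted p = 0.449). Cnn1 (chr9:22099216-22109630, plus strand) encodes calponin, which restrains the motor on actin. It was at 9.62, 5.28 and 5.16 TPM in controls and at 6.49, 5.82 and 4.56 TPM in Gata2cKO, and again only control replicate 1 stood high. For Cnn1 the log2 fold change was -0.18 (95% interval -0.69 to 0.33, limma adjusted p = 0.643), and 0.079 without control replicate 1.

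Des (chr1:75360329-75368579, plus strand), the desmin gene, was at 153, 187 and 205 TPM in controls and at 173, 218 and 179 TPM in Gata2cKO. Its groups overlapped throughout. The log2 fold change was 0.07 (95% interval -0.24 to 0.38, limma adjusted p = 0.780), and it was -0.049 without control replicate 1 and -0.03 without Gata2cKO replicate 2. Whether the change of Myh11, Acta2 or Myl9 differed from that of Des, Tpm1 or Tagln was not tested. The 95% intervals of Myh11 and Acta2 lay wholly below those of Des, Tpm1 and Tagln, and that of Myl9 overlapped those of Des and Tagln.

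**Figure D2:**
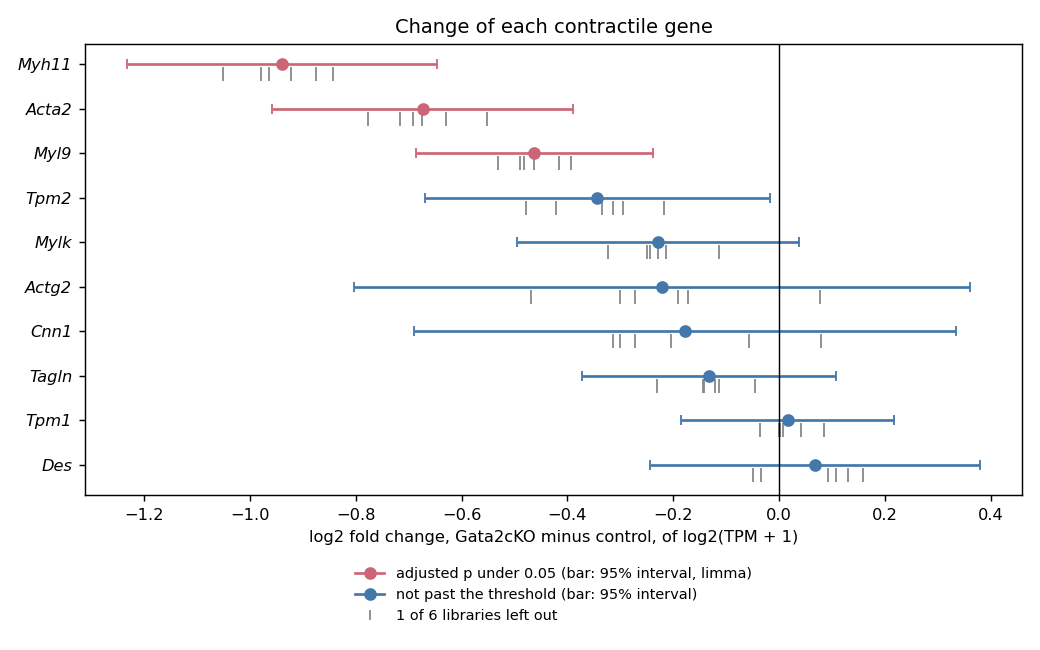
Log2 fold change of each contractile gene (horizontal axis, Gata2cKO minus control, in log2(TPM + 1)), with its 95% limma interval as a bar and grey ticks for the values with 1 library left out. Red marks the 3 genes past the threshold, with values of -0.94 (Myh11), -0.67 (Acta2) and -0.46 (Myl9), and ticks of Actg2, Cnn1, Tpm1 and Des lie on both sides of 0.

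The authors' deposited table counts more of the genes as lower. It gives an adjusted p under 0.05 for Myh11 (4.08e-16), Acta2 (1.74e-08), Myl9 (6.00e-06), Tpm2 (0.0159) and Mylk (0.0335). The authors' deposited table has log2 fold changes of -1.34, -0.75, -0.53, -0.42 and -0.30 for these 5. It calls 6.58% of all 14366 genes lower and 6.69% higher. The authors' deposited table gives an adjusted p of 0.235 for Tagln, 0.421 for Actg2, 0.533 for Cnn1, 0.801 for Tpm1 and 0.997 for Des.

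Control libraries did not vary in the same way for all genes. Myh11, Acta2, Cnn1 and Actg2 were highest in control replicate 1, by 0.66, 0.58, 0.60 and 0.71 on the log2(TPM + 1) scale over the mean of the 6 libraries. Tpm2, Tagln, Des and Tpm1 were below their means in that library, at -0.10, -0.13, -0.27 and -0.11, and all 4 were above them in control replicate 3. A pair of striated muscle genes, picked after their values were seen, was highest in the same library. Acta1, the skeletal muscle actin, was at 9.30 TPM in control replicate 1, at 0.574 and 0.324 TPM in the other controls and between 0.507 and 1.94 TPM in Gata2cKO. Myh3, an embryonic skeletal myosin, was at 1.12 TPM there and between 0 and 0.109 TPM in the other 5 libraries. Others of the list were lowest there, such as Tnnt1, a slow skeletal troponin gene and the most abundant of the list, at 12.8 TPM against 18.2 and 20.9 TPM in the other controls, and Myl7, an atrial light chain gene, at 1.02 TPM against 3.18 and 8.97 TPM. Of the 31 striated muscle markers 20 were analysed, 10 passed the filter on low values, and 0 rose or fell by limma (1, Actn3, had an unadjusted p under 0.05). The summed level of the 20 was 61.4 TPM in control replicate 1, between the 57.8 and 67.8 TPM of the other controls, and 48.2 to 60.4 TPM in Gata2cKO, and 8 of them were under 1 TPM in every library. Their part in the values of the contractile genes was not tested. With that library left out, Myh11, Acta2 and Myl9 remained lower, with log2 fold changes of -0.84, -0.55 and -0.53.

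**Figure D3:**
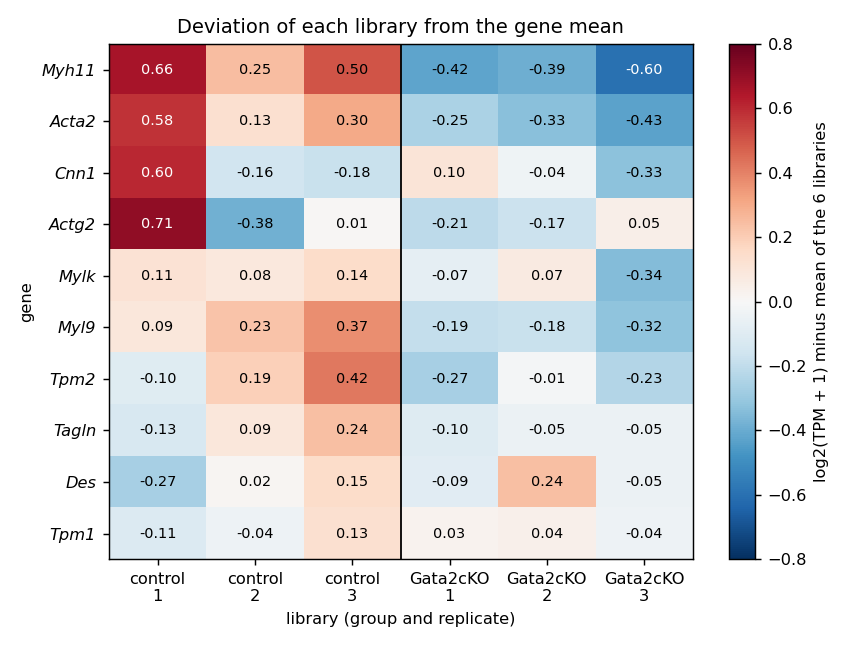
Deviation of each library (columns) from the mean of the 6 libraries for each contractile gene (rows), in log2(TPM + 1), red above and blue below the mean. Control replicate 1 is the highest library for Myh11, Acta2, Cnn1 and Actg2 and below the mean for Tpm2, Tagln, Des and Tpm1.

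Most contractile genes have a broadly expressed relative, and the ratio of the pair within a library does not depend on how the library was scaled. Of 9 such pairs, 3 had a lower ratio in every Gata2cKO library than in any control, and 6 overlapped. Single genes had all Gata2cKO values below all controls in 10.5% of those tested, and the share among other ratios was not computed. The ratios are described without a test, and an exact permutation test of 3 samples against 3 could not give a two-sided p below 0.1. Myh11 was at 9.69%, 8.10% and 8.59% of the non-muscle myosin gene Myh9 in control replicates 1 to 3 and at 3.70%, 3.25% and 3.24% in Gata2cKO replicates 1 to 3. The ratio in Gata2cKO thus lay far under the control range. Myl9 was at 155%, 127% and 130.1% of Myl12a, a non-muscle light chain gene, in controls and at 102%, 99.6% and 91.5% in Gata2cKO. It exceeded Myl12a in all controls and was about level with it in Gata2cKO. Tpm1 was at 254% to 287% of Tpm3 in controls and at 182% to 216% in Gata2cKO. Here it was the relative that moved, as Tpm3 rose from 59.1 ± 4.29 to 83.7 ± 6.81 TPM, a log2 fold change of 0.49 (limma adjusted p = 0.0272).

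Acta2 was at 6.12%, 4.02% and 4.22% of Actb, the cytoplasmic beta-actin gene, in controls and at 4.07%, 3.32% and 3.42% in Gata2cKO. The groups overlapped, with Gata2cKO replicate 1 just above the lowest control. Actb itself was at 6054, 6729 and 7234 TPM in controls and at 5102, 5910.1 and 5381 TPM in Gata2cKO (log2 fold change -0.29, limma adjusted p = 0.150). The gamma-actin gene Actg1 had the opposite sign, at 2206, 2698 and 2826 TPM in controls and 3331, 3426 and 3501 TPM in Gata2cKO (log2 fold change 0.42, limma adjusted p = 0.0686). Tagln was at 129% to 142% of Tagln2 in controls and at 121% to 153% in Gata2cKO. Des was at 14.3% to 19.0% of Vim and at 14.9% to 18.5%.

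**Figure D4:**
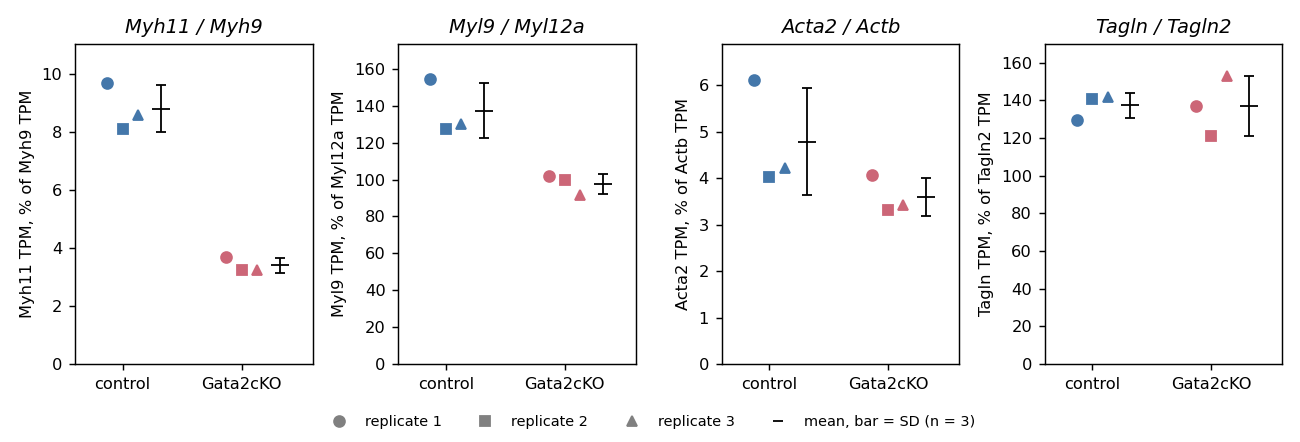
Level of 4 contractile genes as a percentage of a broadly expressed relative within each library (vertical axes, from 0), for control (blue) and Gata2cKO (red) libraries, with black bars for mean and SD (n = 3). The ratios Myh11 to Myh9 and Myl9 to Myl12a separate the groups, and those of Acta2 to Actb and Tagln to Tagln2 overlap.

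Among the 15 genes of this broader family 14 were tested, 2 rose and 0 fell, where 5.73% of all tested genes rose and 1.74% fell. The median log2 fold change was 0.09 (0.05 over all tested genes). Besides Tpm3, the gene that rose was Myl6, the essential light chain of muscle and non-muscle myosin, from 1215 ± 60.0 to 1628 ± 32.6 TPM, a log2 fold change of 0.42 (limma adjusted p = 0.0284). Tpm3 and Myl6 kept their calls without control replicate 1 but lost them in each of the other 5 removals (highest limma adjusted p 0.102 and 0.123). With median-of-ratios scaling 1 of the 14 rose.

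Other genes of the smooth muscle cytoskeleton moved both ways. Of 28 listed, 23 were tested, 4 rose and 1 fell, with a median log2 fold change of 0.00. Over all tested genes 5.73% rose and 1.74% fell, with a median of 0.05. The gene that fell was Hspb6, a small heat shock protein abundant in muscle, from 35.9 ± 0.805 to 24.7 ± 0.434 TPM, a log2 fold change of -0.52 (limma adjusted p = 0.0116). Those that rose were Npnt, an integrin ligand of the matrix, from 13.2 ± 0.966 to 21.7 ± 1.48 TPM, Vcl, the focal adhesion protein vinculin, from 3.06 ± 0.0872 to 4.84 ± 0.308 TPM, Pdlim3, an actinin-binding protein, from 19.5 ± 1.64 to 29.0 ± 3.58 TPM, and Mcam, an adhesion molecule of vascular smooth muscle and endothelium, from 81.6 ± 3.53 to 103.7 ± 6.98 TPM. Their limma adjusted p-values were 0.0116, 0.0176, 0.0298 and 0.0480. Hspb6 and Npnt lost their calls only without Gata2cKO replicate 1 (limma adjusted p = 0.0556 for both). Vcl lost its call in 4 removals and Pdlim3 and Mcam in 5, and over the 6 removals 0 to 6 genes of the list rose and 0 to 2 fell. Flna, the actin crosslinker filamin A and the most abundant of the list, was at 390 to 449 TPM in controls and 391 to 471 TPM in Gata2cKO (limma adjusted p = 0.996).

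The next list holds genes that set the phosphorylation of the light chain. Of 18 listed, 15 were tested, 2 rose and 0 fell, where 5.73% of all tested genes rose (0 of each when any library but control replicate 1 was left out, and 0 higher and 1 lower without mitochondrial genes in the total). Ppp1cb, a phosphatase catalytic subunit gene, rose from 28.1 ± 1.70 to 37.2 ± 1.72 TPM (limma adjusted p = 0.0330). Of 21 genes for calcium handling and ion channels 11 were tested, 1 rose and 1 fell (0 of each when any library but control replicate 1 was left out). The gap junction gene Gja1 rose from 75.2 ± 6.62 to 100.6 ± 0.107 TPM. The plasma membrane calcium pump gene Atp2b1 fell from 33.3 ± 2.31 to 25.3 ± 1.61 TPM (limma adjusted p = 0.0318 and 0.0421).

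Transcription factor genes known to act in smooth muscle were counted by the same test. Of 34 listed, 25 were tested, 2 fell and 2 rose, where 1.74% of all tested genes fell and 5.73% rose. The median log2 fold change of the list was -0.08, against 0.05 over all tested genes. Srf, the factor that binds the CArG box, was at 97.7, 106 and 122 TPM in controls and 97.9, 119.95 and 103 TPM in Gata2cKO (log2 fold change -0.02, limma adjusted p = 0.923). Its coactivator genes Mkl1 and Mkl2 had log2 fold changes of 0.09 and -0.14 (limma adjusted p = 0.605 and 0.573). These 3 were named after their values were seen. Tshz3, needed for smooth muscle of the ureter, fell from 16.2 ± 3.99 to 8.54 ± 0.513 TPM and Gata5 from 13.9 ± 0.224 to 9.58 ± 0.732 TPM (limma adjusted p = 0.0250 and 0.0184). Foxf1, a forkhead gene of visceral mesenchyme, rose from 6.98 ± 2.47 to 14.0 ± 2.26 TPM and Klf5 from 6.44 ± 0.934 to 10.4 ± 1.46 TPM (limma adjusted p = 0.0455 and 0.0330). Tshz3 lost its call without each Gata2cKO replicate (highest limma adjusted p 0.0972, without Gata2cKO replicate 1). Gata5 and Klf5 lost theirs in 4 removals and Foxf1 in 5, and without Gata2cKO replicate 1 the list had 0 in either direction. Hic1, the most abundant of the list, had a log2 fold change of -0.25 (limma adjusted p = 0.403).

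Among receptors and ligands that act on smooth muscle, 4 of 18 tested genes rose and 0 fell, where 5.73% of all tested genes rose. The median log2 fold change was 0.30, against 0.05 over all tested genes. With median-of-ratios scaling 3 of the 18 rose. Ptgir, the prostacyclin receptor gene, rose from 6.74 ± 0.775 to 14.6 ± 2.99 TPM and Edn1, the gene of the vasoconstrictor endothelin, from 13.3 ± 2.81 to 26.9 ± 2.18 TPM (limma adjusted p = 0.0153 and 0.0156). Ptgfr, a prostaglandin receptor gene, rose from 1.15 ± 0.103 to 2.33 ± 0.353 TPM and Pde5a, which breaks down cyclic GMP, from 2.51 ± 0.0651 to 3.48 ± 0.171 TPM (limma adjusted p = 0.0184 and 0.0446). Over the removals 0 to 4 rose, with 0 without Gata2cKO replicate 1. The prostacyclin receptor and endothelin genes kept their calls in 4 of 6. S1pr2, a sphingosine phosphate receptor gene and the most abundant of the list, had a log2 fold change of 0.28 (limma adjusted p = 0.229).

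**Figure D5:**
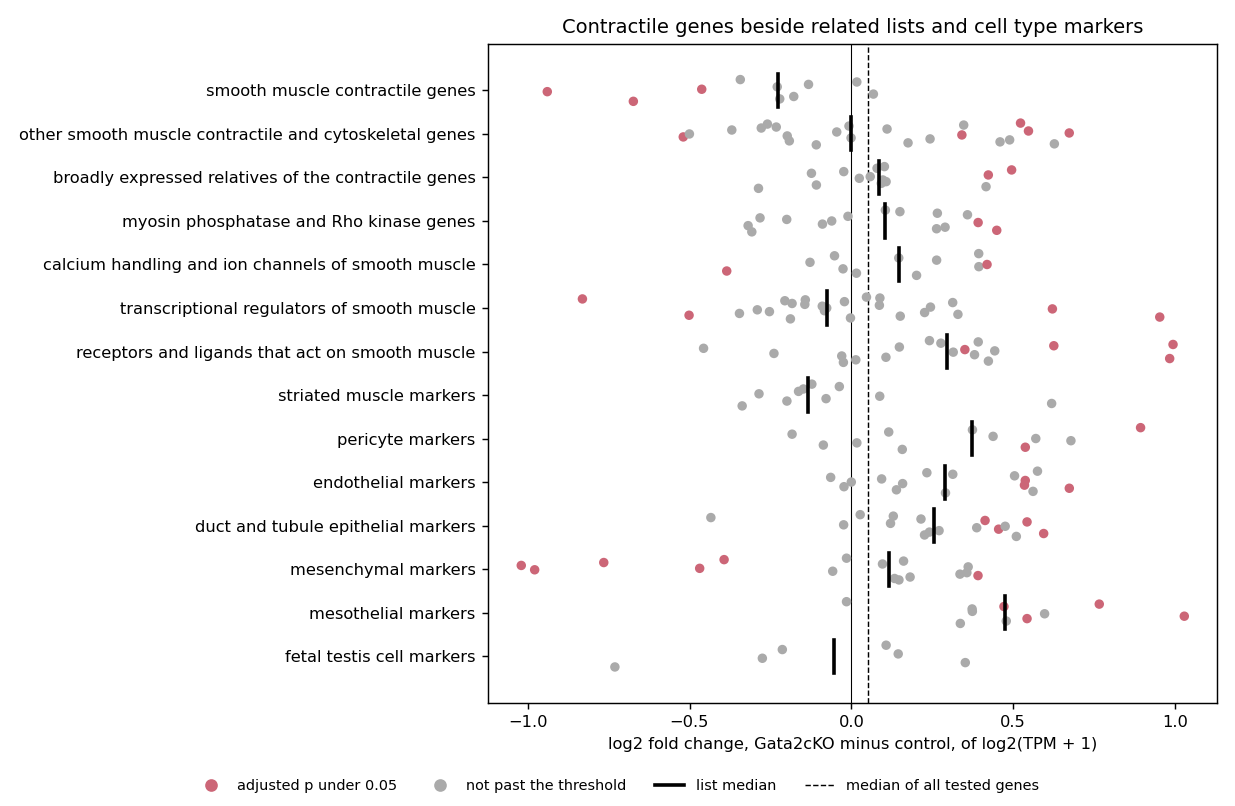
Log2 fold change (horizontal axis, Gata2cKO minus control, in log2(TPM + 1)) of every tested gene in the contractile list, in related lists and in lists of cell type markers, with red for genes past the threshold, black bars for list medians and a dashed line for the median of all tested genes. The contractile genes have the lowest list median (-0.23), and the pericyte, endothelial and mesothelial medians lie at 0.37, 0.29 and 0.47. All lists were chosen with earlier results of these data known.

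Markers of other cell types in or around the tissue were counted by the same test, by which 5.73% of all tested genes rose and 1.74% fell. The lists themselves were not tested. Of 11 pericyte markers, genes of the contractile-like cells on small vessels, 2 rose and 0 fell, with a median log2 fold change of 0.37. The log2 fold change was positive for 9 of the 11 and negative for 2. Pdgfrb and Cspg4 of this list had log2 fold changes of 0.05 and -0.04 in the authors' deposited table (adjusted p = 0.859 and 0.892 there). Anpep rose from 9.56 ± 0.596 to 14.3 ± 1.31 TPM and Vtn from 1.65 ± 0.549 to 3.87 ± 0.571 TPM (limma adjusted p = 0.0208 and 0.0261). Both calls were lost without any 1 Gata2cKO replicate (highest value 0.0755 and 0.0887), and that of Anpep also without control replicate 2 or 3. The summed pericyte level was 225 to 266 TPM in controls and 300.5 to 331 TPM in Gata2cKO, and 0 of the 11 genes were at 0. Of 15 tested endothelial markers 3 rose, Esam, Emcn and Pecam1, and 0 fell (0 without Gata2cKO replicate 1), with summed levels of 512 to 676 TPM and 674 to 802 TPM. Of 16 tested epithelial markers 4 rose, Cldn4, Epcam, Krt7 and Krt19, and 0 fell (0 without Gata2cKO replicate 1), with summed levels of 1248 to 1407 TPM and 1621 to 1678 TPM. Of 10 mesothelial markers 4 rose, Lrrn4, Upk3b, Upk1b and again Krt19, and 0 fell (1 to 4 rose in the removals), with 398 to 518 TPM and 648 to 741 TPM. Of 16 tested mesenchymal markers 1 rose, Col3a1, which kept its call in 1 of 6 removals. Another 5 fell, Tcf21, Osr2, Nr2f1, Nr2f2 and Twist2 (1 to 5 fell in the removals, fewest without Gata2cKO replicate 1 or 3). The log2 fold change was positive for 9 of these 16 and negative for 7, with a median of 0.11. The summed mesenchymal level overlapped, at 8747 to 10785 TPM in controls and 9663 to 12054 TPM in Gata2cKO. Of 6 tested fetal testis markers 0 rose or fell by limma (1, Inha, had an unadjusted p under 0.05). The part of these marker levels in the contractile values was not tested.

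Genes with the most similar pattern were sought by a fixed measure, outside the 10 genes and the 13 other lists. Listed muscle and mesenchymal genes were thus not eligible, nor were predicted genes without a standard symbol. Likeness was the root mean square difference over 6 libraries between a gene's deviations from its mean and the median deviations of the 10 genes, in log2(TPM + 1), among genes with a mean of 10 TPM or more. The nearest 6 were Akap8 (0.0305), Phrf1 (0.0313), Wdr90 (0.0333), Cars (0.0353), Mcoln1 (0.0359) and Fip1l1 (0.0362). The contractile genes themselves lay between 0.0658 (Mylk) and 0.353 (Actg2) from their own median pattern. The nearest genes were selected for a small distance and the contractile genes were not, so these ranges are not compared. Akap8, which anchors protein kinase A in the nucleus, was at 86.2 to 92.3 TPM in controls and 64.5 to 77.2 TPM in Gata2cKO (log2 fold change -0.33, limma adjusted p = 0.0629).

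The sequences of the 10 genes are distinct enough for short reads with few exceptions. Of all 50-base stretches in annotated transcripts, 0.34% in Myh11 are shared with another gene, in Myh9 and Myh10. The share was 0.326% in Acta2, 0.107% in Mylk and 0% in the other 7. In Acta2 the gamma-actin gene Actg1 and the actin pseudogene Actg-ps1 are among the genes that share it. This covers exact matches on the sense strand only.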

How the data were processed

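The deposited data were 1 gene table with 6 library columns. The authors' TPM values were recognised from the values, since each library sums to 997351 to 998844 and no header names the unit. Per the file headers, it also holds a log2 fold change and a raw and adjusted p-value from the authors' own comparison. The submitters' processing notes list STAR 2.7.11a, DESeq2, DESeq and GRCm38 without saying what each was used for. No source used here names the quantifier or the strand setting, so overlapping genes cannot be told apart.

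Library names in the labels tie columns to samples. Genes with 1 TPM or more in at least 3 of 6 libraries were tested (12300), fitted by group with limma 3.58.1 (limma-trend, R 4.3.3) on log2(TPM + 1), two-sided, with Benjamini-Hochberg adjustment over all tested genes. The model was checked on simulated data. The 10 genes and the 13 other lists were chosen with earlier results of these data known. All 10 are named. From other lists, up to 4 genes past the threshold, by smallest adjusted p, and the most abundant were eligible, and any other gene was chosen after its values were seen. Alternatives changed the pseudocount, filter, scaling, variance prior, replicate block, test or libraries. Positions come from GENCODE M21 (GRCm38) and promoters from RefSeq (GRCm38.p6). The values of 1 listed gene are not reported here.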

Additional observations from a re-analysis of the deposited data

How the results depend on the processing

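The lower level of Myh11 kept its direction and its call in all 14 alternatives that gave a value, since the filter at 5 TPM leaves it and Actg2 out. Acta2 and Myl9 kept their direction in all 15 and lost their calls in 4 and 6. With 1 library left out, 1 to 4 of the 10 contractile genes passed and 116 to 1539 of all genes. The authors' deposited test gives 5 of the 10 and 1906 of all genes. Genes without a call that changed sign were Tpm1 (-0.043 with median-of-ratios scaling, -0.025 with upper-quartile scaling, -0.044 without mitochondrial genes in the total, -0.047 in the authors' deposited table, and -0.035 to 0.085 with 1 library left out), Des (-0.049 to 0.16 with 1 library left out), Cnn1 (-0.31 to 0.079) and Actg2 (-0.47 to 0.077). For these 4 the sign turned without control replicate 1, and for Des also without Gata2cKO replicate 2. The cause was not tested.

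Deviations of same-numbered samples had correlations across genes of 0.25, -0.07 and 0.04 for numbers 1, 2 and 3. For samples of unlike number they ran from -0.28 to 0.21. The labels do not say whether the numbers pair samples, and 3 libraries in each group cannot settle it. With the replicate block 2 of the 10 genes passed, Myh11 and Acta2, and 774 of all genes, while Myl9 had a limma adjusted p of 0.0520.

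Median-of-ratios scaling split the changed genes into 502 higher and 397 lower against 705 and 214, and the 3 contractile calls stood. TPM gives no depth, so for genes near 1 TPM such as Actg2 the counting error is unknown.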

Other observations

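Some genes of mature smooth muscle were too low for the filter and are given as values, chosen after these were seen. Pln, whose product restrains the calcium pump of the muscle store, was at 2.27, 1.37 and 0.927 TPM in control replicates 1 to 3 and at 0.125, 0.422 and 0.315 TPM in Gata2cKO replicates 1 to 3. The authors' deposited table gives a log2 fold change of -2.45 (adjusted p = 0.00682) for it. Kcnmb1, the smooth muscle subunit of a calcium-activated potassium channel, was at 1.71, 0.856 and 1.18 TPM in controls and at 0.441, 0.519 and 0.739 TPM in Gata2cKO (adjusted p = 0.145 in the authors' deposited table). Myocd, the coactivator myocardin, was at 1.83, 0.499 and 0.675 TPM in controls and at 0.925, 0.821 and 0.622 TPM in Gata2cKO, with control replicate 1 alone standing high.

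Lmod1, which builds actin filaments in smooth muscle, was at 0.370, 0.158 and 0.390 TPM in controls and at 0.674, 0.754 and 0.678 TPM in Gata2cKO. The authors' deposited table gives it a log2 fold change of 1.14 (adjusted p = 0.0332), opposite in sign to Myh11.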
